A study of Mus musculus with 9 samples.

Results

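Mouse cardiomyocytes carrying an AAV9 vector for the long noncoding RNA Firre were compared with cardiomyocytes carrying the AAV9 control vector, in 3 RNA sequencing libraries each. AAV9 is a form of adeno-associated virus used to bring genes into the heart. The genes described are those with at least 10 counts in 3 or more of these 6 libraries. They number 15351 of the 55487 gene identifiers in the deposited table, and 28461 identifiers had no count in any of the 6. The study also holds 3 blank control libraries, labelled only as a blank. Per the labels, all were cardiomyocytes that had been isolated and were then given TRIzol. The labels give no age, sex or strain of the mice, no promoter of the vectors, no dose, and no time after transduction. They call the libraries biological replicates but name no animals or cultures, so the spread on which each p-value rests may be technical.

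Firre is transcribed from the X chromosome, stays in the nucleus and is known for binding the nuclear matrix protein Hnrnpu and for bringing distant chromosome regions near its own locus. Much of what follows concerns the interferon pathway. In that pathway sensors of foreign RNA or DNA induce interferons, whose receptors act through JAK kinases and factors such as Stat2 and Irf9 on a set of antiviral genes. Cardiomyocytes are otherwise known for their sarcomeres, their calcium cycling and a metabolism that burns fatty acids in many mitochondria.

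Firre itself, on the X chromosome between 50555744 and 50635321 on the minus strand of mm10, checks the labels. Its level was 32.6, 34.5 and 32.7 CPM (counts scaled to library size) in the negative control libraries. The Firre libraries held 62.7, 69.5 and 62.4 CPM, all above every control, and the blank libraries 34.1, 37.2 and 30.3 CPM. The log2 fold change was 0.96 ± 0.07 (SE), with an adjusted p of 6.49e-13 by the quasi-likelihood test of edgeR, on which all calls below rest. The reads do not tell vector transcripts from those of the mouse gene. The 10 cardiomyocyte markers were present in each library and took 3.13% to 3.37% of the counts in the negative control and 4.45% to 4.71% in the Firre libraries. Markers of fibroblasts took 1.02% to 1.03% and 0.452% to 0.505%, and those of macrophages 0.0099% to 0.0112% and 0.00139% to 0.00172%, so RNA of genes known from other heart cells was present too. Gene counts per library ran from 19252992 to 22697016, and mitochondrially encoded genes took 5.89% to 6.62% of them in the negative control and 7.08% to 8.07% in the Firre group.

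More genes differed between the groups than did not. Of the 15351 genes, 56.6% passed an adjusted p of 0.05: 4259 rose with Firre (27.7%) and 4425 fell (28.8%). The median fold change over all genes was 0.00 on the log2 scale, and the quartiles lay at -0.32 and 0.31. Changes of at least 2-fold were called in 11.7% of genes, 754 that rose (4.91%) and 1038 that fell (6.76%). Those of at least 16-fold were 14 rises and 42 falls. The share called grew with the level, from 28.8% below 1 CPM to 88.3% at 1000 CPM or more. The groups did not overlap in 62.8% of genes, 31.0% with Firre above and 31.8% with Firre below. A count of list members that rose or fell is read below against these shares.

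**Figure D1:**
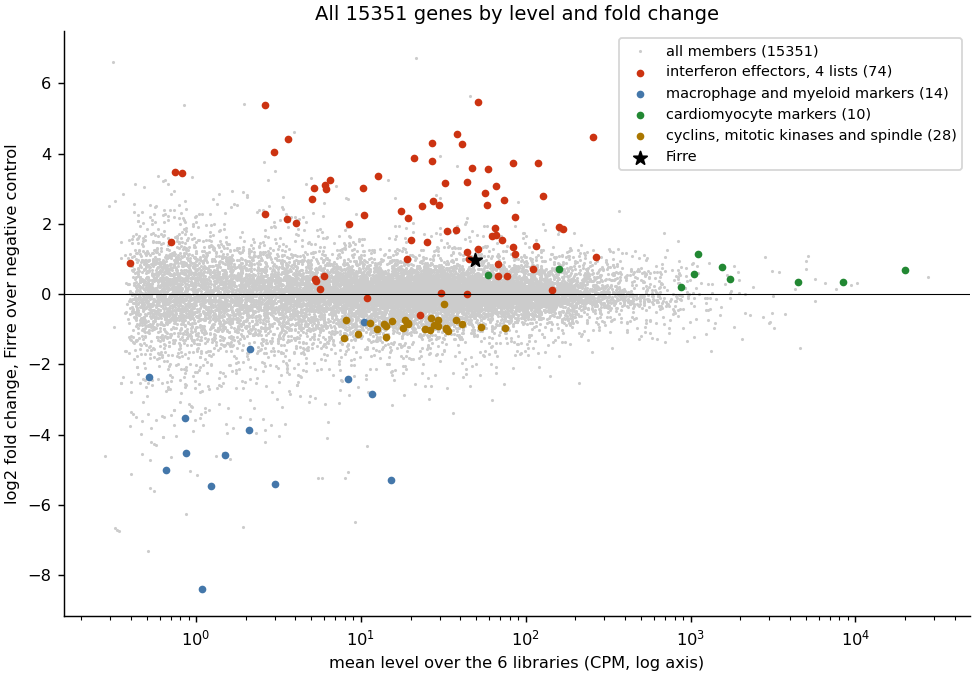
Mean level over the 6 libraries (CPM, log axis) against the log2 fold change of Firre over negative control for 15351 genes, 1 point per gene. Red points are 74 interferon-stimulated effectors, blue points 14 macrophage and myeloid markers, green points 10 cardiomyocyte markers, brown points 28 mitotic genes and the star is Firre. Most red points lie above 1, all blue points lie below 0, and the green points lie above 0 at the right.

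The listed ligand genes of the interferon pathway were nearly absent from the counts of these libraries. None of the 10 interferon genes listed reached the count rule, so none was tested. Ifnb1, the gene of interferon beta, had no count in the 3 negative control libraries and 5, 1 and 3 counts in the Firre libraries. The 10 genes together had 0, 2 and 1 counts in the negative control and 7, 3 and 4 with Firre. Sensors and adaptors of the pathway differed in direction: 11 of 19 rose and 5 fell, with a median log2 fold change of 0.47. The sensors of cytoplasmic double-stranded RNA rose, with Ifih1 (the gene of MDA5) at 2.61 and Ddx58 (the gene of RIG-I) at 1.82. So did Zbp1, a sensor of Z-form nucleic acid, at 3.24, and Eif2ak2, the kinase PKR, at 1.34. Ifih1 stood at 26.3, 27.7 and 21.6 CPM in the negative control and at 155, 149 and 159 CPM with Firre. Tlr7, an endosomal RNA sensor of immune cells, went the other way, from 1.75, 1.93 and 1.38 to 0.202, 0.045 and 0.313 CPM, and Tmem173, the gene of the DNA-sensing adaptor STING, fell by 1.09. Tlr7 passed the count rule only through the negative control and had to differ. Mavs, the mitochondrial adaptor of the RNA sensors, rose by 0.47, while Tbk1, the kinase below it, fell by 0.35.

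Receptors, kinases and factors of the pathway moved in both directions. Of its receptors, JAK kinases, STAT factors and inhibitors, 9 of 20 rose and 7 fell. Of the interferon regulatory factors, 3 of 8 rose and 2 fell. Ifnar1 and Ifngr1, receptor chains for type I and type II interferon, fell by 0.42 and 0.55 on the log2 scale, and the kinase Jak1 fell by 0.21. Stat2 stood at 38.2, 35.6 and 34.2 CPM in the negative control and at 135, 137 and 139 CPM with Firre, without overlap, a log2 fold change of 1.93 ± 0.06 (SE) with an adjusted p of 1.29e-21. Its partner Irf9 rose by 1.34. Irf7, the factor that amplifies interferon genes, went from 124, 120.3 and 120.0 to 615, 639 and 606 CPM. The Firre values were thus all more than 4 times the control values. Irf1 rose by 0.86. Irf8, which is made mainly by myeloid cells, fell by 0.65. Of the brakes on the pathway, Usp18 rose by 3.72 and Socs1 by 1.10, whereas Socs3 fell by 0.30.

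Nearly all antiviral effectors rose, many of them several-fold. In the IFIT and OAS families, which bind or degrade foreign RNA, 14 of 15 members rose, with a median of 3.03. Of the guanylate-binding proteins and p47 GTPases, which attack the vacuoles of intracellular pathogens, 17 of 18 rose (median 2.79). In that list 4 members passed the count rule only through the Firre group and had to differ, and 13 of the other 14 rose (median 2.68). All 6 members of the ISG15 system, a ubiquitin-like tag with its enzymes, rose (median 2.01), and so did 30 of 35 other antiviral genes (median 1.66). None of the 74 fell by edgeR, beside 28.8% of all genes. Ifitm2, a membrane restriction factor, came nearest at -0.59 (adjusted p = 0.0649). It was the 1 member lower at an unadjusted p of 0.05, and it passed as a fall in DESeq2, with library totals alone or in a fit of these 6 libraries only. Rsad2, the gene of viperin, went from 3.09, 1.88 and 1.84 to 103, 91.7 and 105 CPM. Ifit1 went from 29.1, 22 and 15.6 to 507, 454 and 516 CPM and Gbp3 from 6.74, 8.85 and 6.33 to 87.2, 83.5 and 92.2 CPM. Each of these Firre libraries lay above every control library, and the adjusted p was 2.35e-24, 5.9e-06 and 1.61e-16. Families such as Ifit, Oas, Gbp and the H2 genes hold near-identical copies between which reads may have been dropped or split, so values of single members are uncertain.

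The promoters of these genes are shown because many hold a motif that is rare elsewhere. The lists hold genes known to answer interferon, many of which are known to carry this motif. The interferon-stimulated response element (ISRE), bound by complexes with Stat2 and Irf9 or by IRF proteins, was searched as GAAA, any 2 bases and GAAA on both strands of the 250 bases before each start. Promoters were taken from RefSeq on GRCm38.p6 and matched 10915 of the 15351 genes (71.1%), so shares describe only the genes with an entry and do not stand as a check over all genes. A gene counted once if any of its promoters held the motif. It was in 3.19% of all genes matched, in 9 of 12 of the IFIT and OAS list and in 10 of 11 of the GTPase list. Of the 4 effector lists together, 30 of 55 (54.5%) held it. The 8 stretches below have 80 bases each, read 5′ to 3′ along the gene's strand. They belong to genes with the motif from the interferon, antigen presentation and chemokine lists, all with large changes. Some genes were left out of this choice, so these 8 need not be those with the largest change. Capitals mark the ISRE on either strand.
Cxcl10, chr5:92349058-92349137, minus strand: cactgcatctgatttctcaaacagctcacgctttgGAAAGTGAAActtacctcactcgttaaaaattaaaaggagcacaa
Rsad2, chr12:26456528-26456607, minus strand: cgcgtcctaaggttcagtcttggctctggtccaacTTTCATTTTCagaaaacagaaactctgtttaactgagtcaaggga
Ifit1, chr19:34640769-34640848, plus strand: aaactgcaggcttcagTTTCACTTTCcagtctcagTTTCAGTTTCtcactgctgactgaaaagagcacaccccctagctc
Ifit3b, chr19:34607768-34607847, plus strand: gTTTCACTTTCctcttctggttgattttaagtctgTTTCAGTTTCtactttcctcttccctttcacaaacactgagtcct
Ifit3, chr19:34583372-34583451, plus strand: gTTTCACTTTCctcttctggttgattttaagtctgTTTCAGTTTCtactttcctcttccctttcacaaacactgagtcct
Oas3, chr5:120777690-120777769, minus strand: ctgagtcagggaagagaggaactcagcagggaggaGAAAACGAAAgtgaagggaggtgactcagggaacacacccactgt
Gbp3, chr3:142559964-142560043, plus strand: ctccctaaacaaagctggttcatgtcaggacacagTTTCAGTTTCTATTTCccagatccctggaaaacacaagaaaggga
Cxcl14, chr13:56296679-56296758, minus strand: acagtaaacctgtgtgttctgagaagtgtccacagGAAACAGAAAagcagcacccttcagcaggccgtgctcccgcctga

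The stretches of Ifit3 and Ifit3b are identical over all 80 positions of this near-duplicate pair, and their fold changes were 3.75 and 4.27. Holding the motif did not go with a rise in every case. Cxcl14, a chemokine of stromal cells, fell by 4.06 with the element in its promoter. It passed the count rule only through the negative control and had to differ. Over all 348 genes with the motif, 34.2% rose and 29.6% fell, beside 29.1% and 29.9% of the 10567 without it. Rises of at least 2-fold were called in 14.7% of genes with the motif and 4.11% of those without. A match is a description of letters and not a shown binding site.

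Antigen presentation by MHC class I rose at most steps. In this route the immunoproteasome cuts peptides, the Tap transporter carries them into the endoplasmic reticulum and the heavy chain with B2m displays them. Psmb8, Psmb9 and Psmb10, the interferon-inducible catalytic subunits, rose by 2.75, 2.38 and 1.37. Psmb8 stood at 4.58, 4.14 and 3.83 CPM in the negative control and at 28.9, 29.4 and 26 CPM with Firre, with no overlap. The subunits they replace rose less, Psmb5 by 0.48, Psmb6 by 0.33 and Psmb7 by 0.33, and the median of the 31 constitutive subunits was 0.11. Per exon length, Psmb8 made up 6.81%, 5.61% and 4.73% of the Psmb8 and Psmb5 counts in the negative control and 21.9%, 24.4% and 20.8% with Firre. Of the loading and class I genes, 15 of 19 rose: Tap1 by 1.71, H2-D1 by 1.31, H2-K1 by 1.20 and B2m by 0.89. H2-T24, a nonclassical heavy chain, went from 4.22, 4.33 and 2.55 to 54.5, 54.4 and 60.9 CPM, the largest rise of the list. The general chaperones Calr and Pdia3 fell by 0.42 and 0.37. MHC class II, the route of professional antigen-presenting cells, did not follow: 4 of its 8 listed genes reached the count rule, none rose by edgeR or DESeq2 or at an unadjusted p of 0.05, and Ctss, its cathepsin, fell by 5.25. Ctss and H2-DMb1, the 2 of these genes that fell, passed the rule only through the negative control and had to differ.

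Chemokines, which call in immune cells, divided. Of 22 with enough counts, 3 rose and 12 fell (5 rose without the second Firre library). Ccl5 and Cxcl11, of those that rose, and 4 that fell passed the count rule through 1 group only and had to differ, and of the other 16 chemokines 1 rose and 8 fell. Ccl5, which attracts T cells, went from 0.463, 0.33 and 0.409 to 41.4, 40.7 and 46.5 CPM. Its 2618 counts over the Firre libraries against 24 over the negative control give the highest fitted log2 fold change of all genes, 6.73 ± 0.16 (SE). Cxcl10, a ligand of the T cell receptor Cxcr3, went from 3.14, 1.32 and 1.02 to 78.6, 90.7 and 100.1 CPM, where the first control library was above the other two. Its log2 fold change of 5.63 was 6.25 without that library. Cxcl11, of the same family, had no count in the negative control and 14, 11 and 13 counts with Firre, at least 12.5-fold higher against a floor of 3 counts over the group. Those that fell include Ccl3 at -4.09 and Ccl9 at -2.49, both macrophage products, and Cxcl12 at -1.37, a stromal product. NF-kB and its inflammatory targets mostly fell, 13 of 23 against 4 that rose. Tnf fell by 2.02, Icam1 by 1.40 and the NF-kB subunit Nfkb1 by 0.48, while Ptgs2, the inducible cyclooxygenase, rose by 1.64 and Il33 by 1.67. Complement genes fell in 12 of 17 cases, among them C3, the central component, at -1.54. Of these, C1qa, C1qc and C5ar1 passed only through the negative control, and 9 of the other 14 fell. Genes of cell death fell in 13 of 23 cases, with Ripk1 at -0.80 and Ripk3 at -0.65. Mlkl, the executioner of necroptosis, rose by 0.26.

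Beside the immune genes, markers of other cell types were lower. All 14 macrophage and myeloid markers with enough counts fell, with a median of -4.21, and 9 of them passed the count rule only through the negative control, so that these had to differ. The 5 members that did not pass in this way had a median of -2.415. The other 4 of the 18 listed were below the rule. Lyz2, the macrophage lysozyme, went from 27.6, 32.3 and 29.6 to 0.606, 1.08 and 0.521 CPM. C1qa, a complement chain made by macrophages, had 46, 47 and 38 counts in the negative control and none with Firre, at least 44.3-fold lower against the same floor. With C1qa at this bound the median of the list stayed at -4.21. The factor Spi1 and the complement chain C1qc, which also define these cells, had 3 and 2 counts over the Firre libraries against 146 and 76. Wfdc17, the lowest of the genes outside every list, had 31, 59 and 38 counts against none, at least 43.3-fold lower. It too passed the count rule only through the negative control and had to differ. Csf1r, which encodes the receptor for the growth factor of macrophages, fell by only 0.79. In bulk RNA, fewer cells of a type and less RNA per cell cannot be told apart. For the falls of Tlr7, Irf8, Ctss, Ccl3, Ccl9 and the complement genes above, the share of counts of the macrophage markers moved in the same direction, and their part in those results was not tested. In promoters, the PU.1 motif GAGGAAG of the myeloid factor Spi1, on both strands, was in 4 of the 8 macrophage markers with an entry and in 12.9% of all genes with one. Over all 1410 genes with the motif, 26.2% rose and 35.1% fell, beside 29.8% and 29.2% of the 9505 without it. Of the markers holding it, 3 show its place (capitals), and these 3 passed the count rule only through the negative control.
C1qc, chr4:136893066-136893145, minus strand: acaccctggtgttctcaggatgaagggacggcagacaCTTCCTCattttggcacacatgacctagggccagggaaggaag
Itgam, chr7:128062519-128062598, plus strand: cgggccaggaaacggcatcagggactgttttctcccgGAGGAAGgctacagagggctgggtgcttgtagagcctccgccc
Fcgr1, chr3:96293983-96294062, minus strand: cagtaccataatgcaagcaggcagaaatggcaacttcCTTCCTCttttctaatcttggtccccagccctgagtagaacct

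Stromal and vascular genes were lower as well. All 13 fibroblast markers with enough counts fell (median -1.06), as did 16 of 18 endothelial markers (-1.06) and all 12 epicardial markers (-2.11). Endothelial markers took 0.122% to 0.123% of the counts in the negative control and 0.0478% to 0.0485% with Firre, and epicardial markers 0.0517% to 0.0544% and 0.0133% to 0.0145%. None of the 3 lists had a tested member at 0 counts in the Firre group. Pdgfra, a fibroblast receptor, went from 117, 129 and 119 to 44.4, 47.9 and 49.983 CPM. Tie1, an endothelial receptor, went from 88.8, 86.3 and 84.8 to 25.3, 27.3 and 23.7 CPM, and Lrrn4, a mesothelial surface protein, from 111, 114 and 109 to 12.4, 13.5 and 15.8 CPM. No Firre library reached a control library in any of these. Smooth muscle and pericyte markers fell in 10 of 12 cases, Acta2 by 1.13 and Myh11 by 1.41, and Des, which cardiomyocytes also make, rose by 0.87. Extracellular matrix followed: 22 of 27 collagen chains and 34 of 38 other matrix genes fell. Fibronectin (Fn1) was among the 10 genes with most counts in the negative control, at 6784, 6779.8 and 6999 CPM, and stood at 2207, 2382 and 2434 CPM with Firre. Collagen chains took 2.06% to 2.15% of the counts in the negative control and 1.1% to 1.2% with Firre. Col4a5, a basement membrane chain, rose by 0.19, and the crosslinking enzyme Loxl3 rose by 0.95. Of the integrins, laminins and cytoskeletal genes of non-muscle cells, 22 of 29 fell and 5 rose, with Actb at -0.81, Myh9 at -0.84 and Vim at -0.59. The markers of these cell types moved in the same direction as every fall in this paragraph, and their part was not tested. CPM are relative to the library, so the falls here and the rises of muscle genes described next are not independent of each other.

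**Figure D2:**
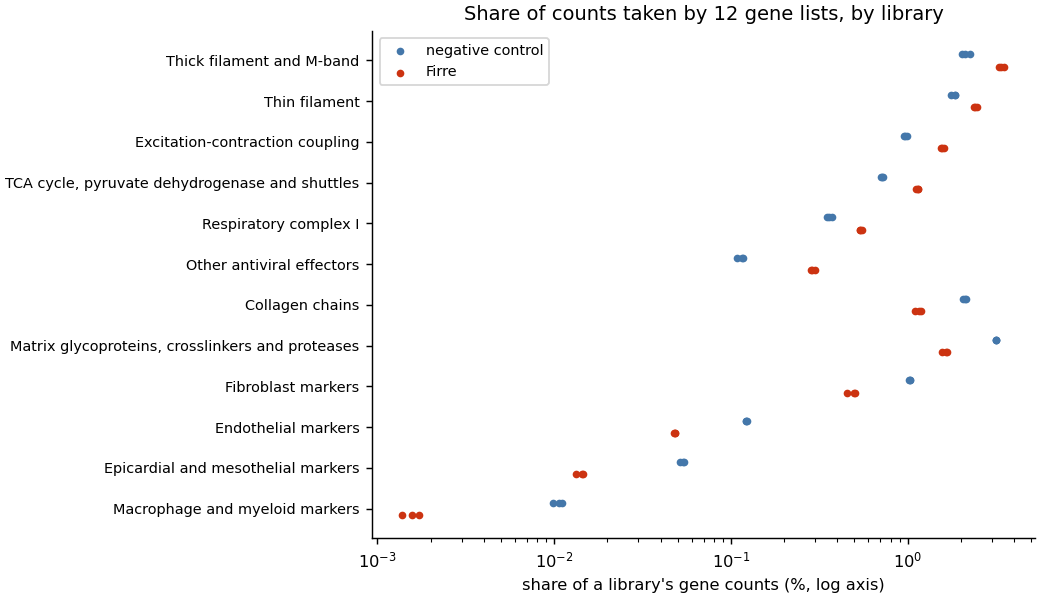
Share of a library's gene counts (%, log axis) taken by each of 12 gene lists, 1 point per library, blue for the 3 negative control and red for the 3 Firre libraries. The red points lie to the right for sarcomere, calcium, mitochondrial and antiviral lists and to the left for matrix and non-muscle markers, without overlap in any of the 12.

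Sarcomere genes rose nearly throughout. In the thick filament and M-band, 14 of 16 rose (median 0.77). In the thin filament, 16 of 17 rose (0.70), and among titin, Z-disc and costamere genes 20 of 25 did (0.56). Myh6, the fast myosin heavy chain and the nuclear gene with most counts, went from 16452, 14438 and 15089.6 to 24303, 25511 and 23619 CPM. Atrial myosin light chains rose more than ventricular ones: Myl7 by 1.73 and Myl4 by 1.52, against Myl2 at 0.39 and Myl3 at 0.21. Per exon length, Myl7 made up 56.1%, 56.1% and 53.7% of the Myl7 and Myl2 counts in the negative control and 75.2%, 75.1% and 76.9% with Firre. Myh7, the slow myosin of the fetal ventricle, kept a small share of the Myh6 and Myh7 pair, 0.98%, 1.05% and 1.23% against 1.16%, 1.2% and 1.1%, ranges that overlap. Cardiac troponin I (Tnni3) rose by 1.14. In contrast, 3 genes of the Z-disc and costamere list fell, among them Pdlim3 by 1.25 and Vcl by 0.27, and so did Tpm2, a tropomyosin also of smooth muscle, by 0.79. Of the genes of this list with a promoter entry, 7 of 20 held the MEF2 motif (CTA, any 4 bases and TAG), searched on both strands. Of all genes matched, 3.38% did. Mef2c, a factor that binds such sites in muscle, rose by 1.07. The following 4 stretches, from genes of the muscle lists with the motif, show it in capitals. Some genes were left out of this choice too, so these 4 need not be those with the largest change.
Ldb3, chr14:34588618-34588697, minus strand: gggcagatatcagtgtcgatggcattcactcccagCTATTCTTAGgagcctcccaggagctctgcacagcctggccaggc
Myoz2, chr3:123034988-123035067, minus strand: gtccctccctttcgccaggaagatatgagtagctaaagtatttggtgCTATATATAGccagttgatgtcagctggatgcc
Smpx, chrX:157698812-157698891, plus strand: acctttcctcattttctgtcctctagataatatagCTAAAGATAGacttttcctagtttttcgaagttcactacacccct
Synpo2l, chr14:20668419-20668498, minus strand: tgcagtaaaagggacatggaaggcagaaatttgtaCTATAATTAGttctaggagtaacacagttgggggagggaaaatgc

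These genes rose by 1.26, 1.12, 0.95 and 0.94 on the log2 scale. Over all 369 genes with the MEF2 motif, 38.8% rose and 22.8% fell, beside 29.0% and 30.2% of the 10546 without it.

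Calcium handling and rhythm genes gave the larger single changes of the muscle group. Atp2a2, which pumps calcium back into the sarcoplasmic reticulum, went from 3358, 3247 and 3284 to 7133, 7068 and 6848 CPM. Ryr2, the calcium release channel, rose by 0.78, and the T-type calcium channel Cacna1h by 1.60. Kcnip2, the subunit that carries the transient outward current with Kv4 channels, went from 1.95, 1.65 and 1.63 to 8.07, 9.55 and 8.08 CPM, a log2 fold change of 2.29 ± 0.18 (SE). Kcnj11 and Abcc8, the pore and the regulatory subunit of one ATP-sensitive potassium channel, rose by 1.75 and 2.01. Kcnj8, the pore of the vascular form, fell by 1.42. Of the 27 sodium, potassium and pacemaker channel genes, 18 rose and 4 fell. The pacemaker channel Hcn4 rose by 1.30. At the intercalated disc, 14 of 18 rose, the desmosomal Dsc2 by 1.17 and the connexins Gja5 and Gja1 by 1.02 and 0.52. Nppa, the atrial natriuretic peptide, rose by 0.95 and Corin, the protease that cuts it to its active form, by 2.18. The receptors Npr1 and Npr3 fell by 1.28 and 2.06, and Npr3 is listed with the endothelial markers, which fell too. Cardiac transcription factors rose in 13 of 21 cases. Tbx5 rose by 1.20, Nkx2-5 by 0.71 and the methyltransferase Smyd1 by 1.19, while Gata6 fell by 0.24 and Gata5 by 2.28.

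Genes of energy metabolism rose in nearly every list. Of the genes for fatty acid uptake and oxidation, 29 of 30 rose (median 0.98). For the tricarboxylic acid cycle and its shuttles it was 30 of 31 (0.66), for respiratory complex I 43 of 44 (0.60), and for mitochondrial ribosomal proteins 50 of 58 (0.40). In the same libraries all 10 cardiomyocyte markers rose (median 0.55), and their part in the rises of this and the next paragraphs was not tested. Pdk4, the kinase that shuts pyruvate out of the cycle, went from 25.1, 22 and 25.2 to 81.9, 105 and 90.1 CPM. Ucp3, a mitochondrial carrier induced by fatty acids, rose by 2.58, and Plin5, which ties lipid droplets to mitochondria, by 2.14. Ppargc1a, the coactivator of mitochondrial biogenesis, went from 31.5, 34.6 and 31.4 to 90.8, 80.01 and 83 CPM, and its partners Esrra and Ppara rose by 0.76 and 1.19. Tfam, which packs mitochondrial DNA, rose by 0.31. Of the 20 mitochondrially encoded genes tested, 9 rose and 2 fell. The most counted, mt-Co1, a catalytic subunit of cytochrome oxidase, stood at 22292, 24845 and 22605 CPM in the negative control and at 34620.0, 29856 and 32418 CPM with Firre, a log2 fold change of 0.47 (adjusted p = 1.01e-07).

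Glucose genes rose less uniformly. Muscle isoforms rose, with Pgam2 at 1.19, Eno3 at 0.75 and the insulin-responsive transporter Slc2a4 at 0.62. The widely made Eno1 fell by 0.40 and Pfkfb3, a driver of glycolysis in growing cells, by 0.65. Ldhb, the heart lactate dehydrogenase, rose by 0.94 and Ldha fell by 0.12, so that Ldha went from 69.8%, 70.5% and 69.9% to 52.9%, 52.8% and 52.7% of the pair per exon length. The 3 Firre values lay close together and below every control. The share of the glucose transporter Slc2a1 in its pair with Slc2a4 went from 71.6%, 72.9% and 71.9% to 60.1%, 62.8% and 62.3%. Cox6a1, the liver form of a cytochrome oxidase subunit, took 57.8%, 57.2% and 57.3% of its pair with the heart form Cox6a2 in the negative control and 50.7%, 52.2% and 50.7% with Firre. Cox8a (82.1%, 81.1% and 77.7% against 79.1%, 81.9% and 79.8% of its pair with Cox8b) and Hk1 (57.7%, 57.4% and 57.8% against 57.4%, 60.2% and 58.1% with Hk2) overlapped between groups. Eef1a2, the elongation factor of muscle and neurons, took 6.84%, 6.53% and 6.47% of its pair with Eef1a1 and 14.3%, 14.2% and 13.8% with Firre. In contrast with oxidation, cholesterol and lipid synthesis fell in 20 of 27 genes. The list took 0.206%, 0.264% and 0.207% of the counts in the negative control and 0.161%, 0.159% and 0.158% with Firre, so the second control library was above the other two. Without it 15 genes of the list fell. The desaturase Scd1 fell by 1.26 and the regulators Srebf1 and Srebf2 by 0.50 and 0.37.

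**Figure D3:**
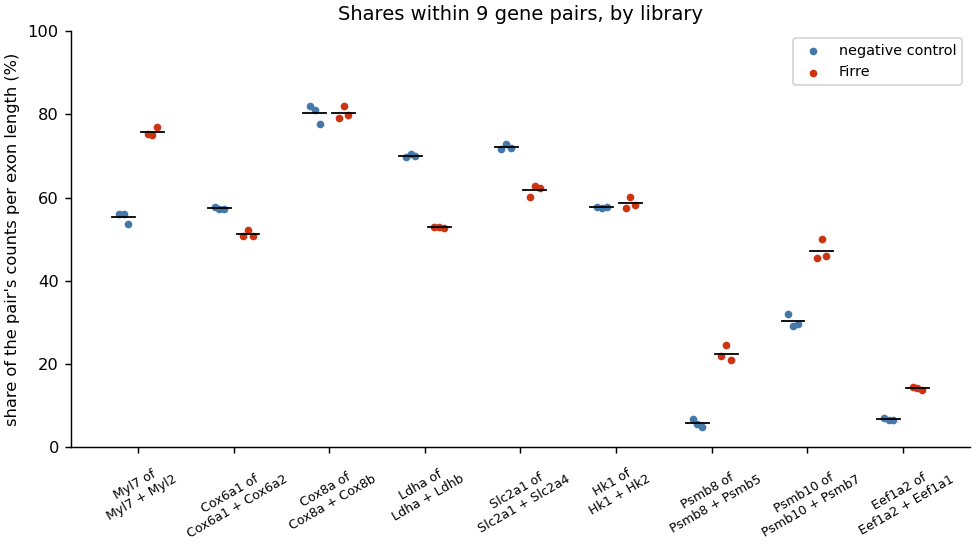
Share of the first gene in the summed counts per exon length of 9 gene pairs (%), 1 point per library and a line at the mean of 3, blue for negative control and red for Firre. Myl7, Psmb8, Psmb10 and Eef1a2 take larger shares with Firre, Ldha, Slc2a1 and Cox6a1 smaller ones, and the points of Cox8a and Hk1 overlap.

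Stores of energy and their control were higher too. Glycogen, creatine and myoglobin genes rose in 14 of 18 cases, among them the glycogen targeting subunit Ppp1r3c at 1.62, the muscle phosphorylase Pygm at 0.96 and the muscle creatine kinase Ckm at 0.81. Ckmt2, the mitochondrial creatine kinase of muscle, fell by 0.18. Lipid droplet genes rose in 13 of 18 cases, with the lipases Lipe and Pnpla2 at 1.59 and 1.08. Of adrenergic, muscarinic and cAMP genes, 13 of 24 rose and 6 fell. The beta receptor Adrb1 and the cyclases Adcy5 and Adcy6, which carry its signal in heart muscle, rose by 0.49, 0.61 and 0.61. The endothelin receptor Ednra rose by 1.23, whereas Ednrb, the form of endothelial cells, fell by 1.51.

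Stress genes moved in both directions. Ddit3, the gene of the stress factor CHOP, went from 33.6, 33.4 and 33.2 to 107, 100.002 and 105 CPM, and Atf5 and Trib3 of the same branch rose by 0.90 and 0.73. Of the list of the unfolded protein response and Atf4 targets, 12 of 31 rose and 14 fell. Those that fell include the factor Xbp1 by 0.39, the sensor kinase Eif2ak3 by 0.50 and the chaperone Hsp90b1 by 0.25. The chaperone Hspa5 fell by 0.12, a call that was lost (adjusted p = 0.0522 to 0.0613) without the first or the third Firre or the second or the third control library. Heat shock proteins rose in 13 of 18 cases, led by the small ones, Hspb3 at 1.55 and Hspb8 at 1.25. Of the glutathione transferases, 2 of the alpha class rose most, Gsta2 at 4.63 and Gsta1 at 3.14. Gsta2 went from 0.154, 0.282 and 0.46 to 8.33, 8.15 and 6.1 CPM. It passed the count rule only through the Firre group and had to differ. Gsta2 and Gsta1 are near copies of each other, so their split is uncertain, and their relative Gsta3 fell by 1.41. Of the p53 targets, 9 of 22 rose and 5 fell (3 without the first Firre library and 2 without the first control), and Cdkn1a, the cell cycle inhibitor p21, rose by 0.48. Of the circadian clock genes, 9 of 18 rose and 3 fell (median 0.27). Dbp, Hlf and Nr1d1, which the clock drives, rose by 0.71, 0.66 and 0.52, and the clock factor Arntl fell by 0.29. Genes induced by low oxygen fell more often than they rose, 8 against 3 of 18, with Ndrg1 at -0.88. Autophagy and lysosome genes rose in 8 and fell in 10 of 27 cases. The muscle ubiquitin ligases Fbxo32 and Trim63 rose by 0.93 and 0.47, and the cathepsins Ctsk and Ctsl fell by 0.87 and 0.48. Immediate early factors fell in 10 of 20 cases, Klf4 by 1.01 and Junb by 0.53, and Nr4a3 alone rose, by 1.14 (2 members rose without the third Firre or the first control library).

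Cell division genes fell together. All 28 cyclin, mitotic kinase and spindle genes fell (median -0.90), and 23 of 25 replication genes did (-0.71). Ccnb2, a mitotic cyclin, went from 19.6, 19 and 21 to 7.17, 9.01 and 9.28 CPM. Plk1 fell by 1.02, Mcm6 of the replicative helicase by 0.84 and Pcna by 0.47. Cdk4 fell by 0.60, Ccnd3 rose by 0.25, and the inhibitor gene Cdkn2a fell by 1.84. NF-Y, a factor of many promoters including those of mitotic genes, binds CCAAT boxes. This motif, on both strands, was in 17 of 23 mitotic promoters with an entry and in 40.3% of all. Of those holding it, 3 are shown with the box in capitals. Some genes were left out of this choice as well, so these 3 need not be those that fell most.
Ttk, chr9:83834609-83834688, plus strand: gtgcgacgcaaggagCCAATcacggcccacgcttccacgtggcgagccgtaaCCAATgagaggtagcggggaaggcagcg
Ccnb2, chr9:70421555-70421634, minus strand: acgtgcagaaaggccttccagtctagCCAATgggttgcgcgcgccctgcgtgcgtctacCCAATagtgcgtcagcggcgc
Racgap1, chr15:99651657-99651736, minus strand: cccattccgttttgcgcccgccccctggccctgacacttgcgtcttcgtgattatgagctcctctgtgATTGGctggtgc

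Ttk, a spindle checkpoint kinase, fell by 1.26, and Racgap1, which acts in cytokinesis, by 1.05. The CCAAT box alone did not separate risers from fallers: of the 4397 genes holding it, 29.0% rose and 29.5% fell. It was also in 14 of 15 genes with a promoter entry in the class I antigen presentation list, most of whose genes rose. Division genes are shared by all cell types, and the markers of non-muscle cells fell in the same libraries. Their part in the fall of division genes was not tested.

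Signals between cells changed on both sides. Of the ErbB system, by which neuregulin from endothelial cells reaches cardiomyocytes, the receptor Erbb4 rose from 37, 34.8 and 30.6 to 115, 100.3 and 106 CPM. Its ligand Nrg1 fell from 109, 105 and 107 to 23.6, 25.4 and 26.7 CPM, and the groups overlapped in neither gene. Egfr, the receptor of other ErbB ligands, fell by 1.79. In the insulin-like growth factor axis Igf2 rose by 1.02 and the binding protein Igfbp5 by 1.71, while Igf1 fell by 1.70 and Igfbp3 by 2.26. H19, the noncoding RNA imprinted beside Igf2, fell by 1.65, and Meg3, another imprinted noncoding RNA, by 1.25. In the TGF-beta and BMP families 22 of 35 fell. Their targets Id1 and Id2 fell by 1.10 and 1.05 and the ligand Bmp4 by 1.42, while Bmp10, a ligand made by atrial muscle, rose by 1.44 and Bmp7 by 1.48. Wnt and Notch genes fell in 23 of 30 cases, the receptor Notch1 by 1.10 and the ligand Wnt5a by 1.71, while Dkk3, a Wnt modulator, rose from 50.9 ± 0.728 to 203 ± 13.4 CPM (SD, n = 3). The Hippo-YAP list fell in 16 of 21 cases, and Yap1 itself did not pass (-0.06, adjusted p = 0.356). In the PI3K, Akt and mTOR core, 9 of 22 rose and 2 fell (6 with library totals alone). Mtor and Akt2 rose by 0.45 and 0.33, Pik3cg, a PI3K catalytic subunit of leukocytes, fell by 1.32, and Akt1 did not pass (-0.08, adjusted p = 0.18). The fibroblast, endothelial and epicardial markers, with medians of -1.06, -1.06 and -2.11, fell in the same libraries as Nrg1, Igf1, Igfbp3 and the TGF-beta, BMP, Wnt and Notch genes, and their part in those falls was not tested.

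**Figure D4:**
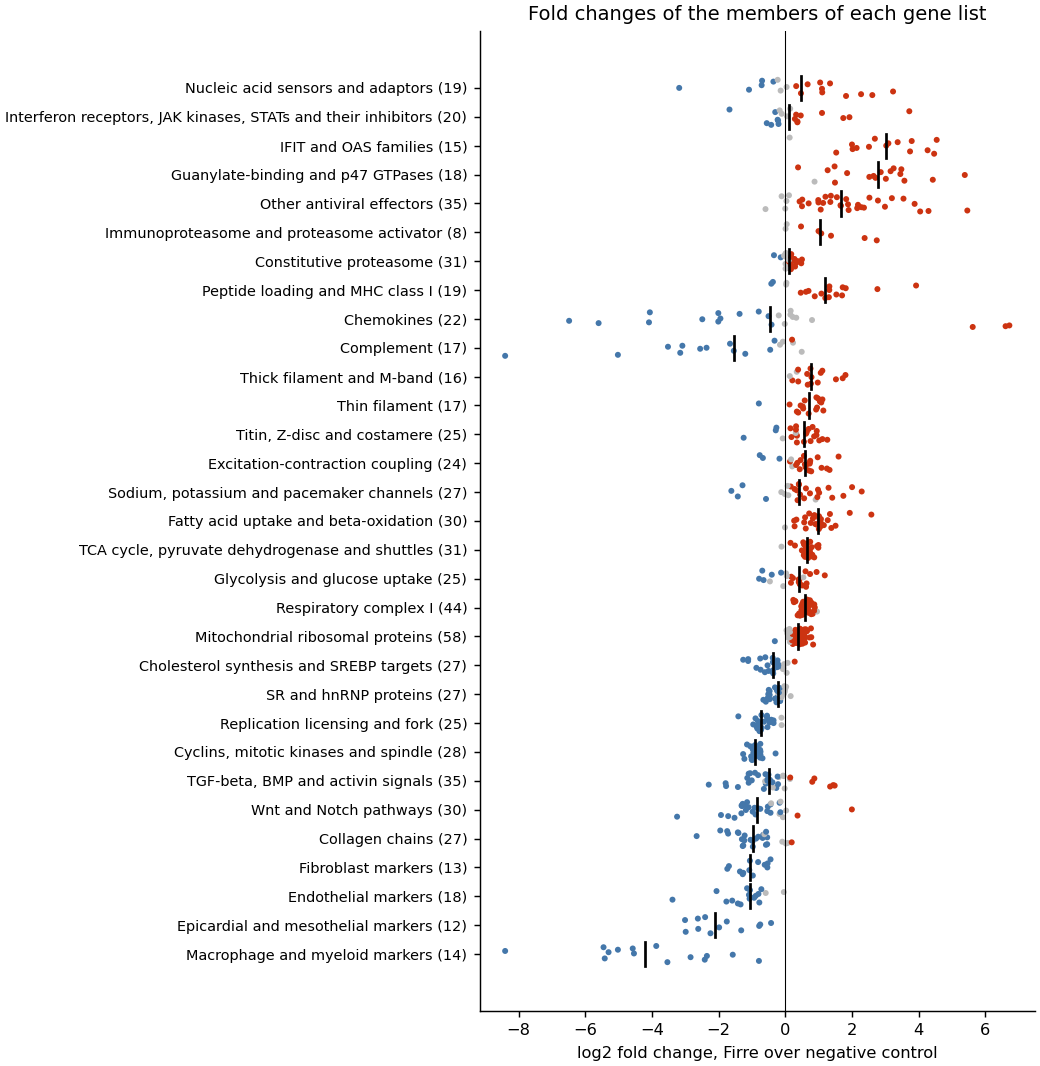
Log2 fold change of Firre over negative control for the members of 31 gene lists (number of members in brackets), 1 point per gene and a black line at the list median. Red genes rose and blue genes fell by edgeR at an adjusted p of 0.05, and grey genes did not pass. Of the lists drawn, the IFIT and OAS families have the highest median and the macrophage markers the lowest, the muscle and mitochondrial lists lie mostly right of 0, and chemokines lie at both ends.

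Most genes of the Firre partner list and of the SR and hnRNP list moved the other way from Firre, whereas most muscle splicing regulators rose. Of the 20 other genes in the list of Firre partners and nuclear architecture, 1 rose, Safb, a scaffold protein, by 0.19, and 13 fell. Hnrnpu, its known partner, fell by 0.16 and the lamin Lmnb1 by 0.81. The splicing repressor Ptbp1 fell from 309, 282 and 305 to 160.2, 174 and 176 CPM, and its paralog Ptbp2 did not pass (-0.20, adjusted p = 0.158), so that the share of Ptbp2 in the pair per exon length went from 4.88%, 6.74% and 5.67% to 9.91%, 7.45% and 8.43%. Of SR and hnRNP splicing proteins, 17 of 27 fell by edgeR, Srsf5 by 0.66 and Hnrnpa1 by 0.51, and none rose. Tra2a, at 0.16 (adjusted p = 0.0506), was the 1 member higher at an unadjusted p of 0.05. It passed without the second Firre, the second control or the third control library, and not in DESeq2. With RLE size factors, the filterByExpr filter, no low-count filter or a fit of these 6 libraries only, it passed as well. Muscle splicing regulators rose in 10 of 14 cases, Rbm24 by 1.15 and Rbm20, which splices titin, by 0.80. Of the 5 genes reported to meet the Firre locus across chromosomes, Slc25a12 and Ppp1r10 rose by 0.67 and 0.29, Atf4 and Eef1a1 fell by 0.17 and 0.19, and Ypel4 was below the count rule.

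Around Firre on the X chromosome, 25 annotated genes start within 1 Mb, Firre included, and 6 of them had enough counts. The nearest with enough counts, the kinase gene Stk26 at 205.7 kb, fell from 22.6, 23.7 and 22.9 to 4.79, 6.08 and 6.46 CPM, a log2 fold change of -2.00 ± 0.12 (SE). Mbnl3, a splicing regulator 571.2 kb away on the same side, fell by 0.91, and the pseudogene Gm14719 fell by 0.70. Igsf1, 837.6 kb to the other side, rose by 0.61. This call was lost without the first Firre library (adjusted p = 0.098), the first control (0.0643) or the third control (0.125). Rap2c, between Stk26 and Mbnl3, did not pass (0.17, adjusted p = 0.0593). Of the 506 X-linked genes tested, 21.9% rose and 29.8% fell, beside 27.7% and 28.8% of all genes. Xist, the RNA of the inactive X chromosome, did not pass (0.04, adjusted p = 0.698) and stood at 355, 361 and 356 CPM in the control libraries, against 385, 334 and 384 CPM with Firre.

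By class, long noncoding RNAs rose more often than they fell. Of 924 tested, 237 rose (25.6%) and 110 fell (11.9%), with a median of 0.23, beside 3855 rises (29.0%) and 4173 falls (31.4%) of 13296 protein coding genes with a median of -0.01. The long noncoding RNAs were lower in level, with a median of 1.27 CPM against 24.6 CPM, and the reads of antisense genes may belong to the partner gene. Mhrt, antisense to Myh7, rose by 0.59 and is such a case. Carmn, a noncoding RNA of smooth muscle and heart, fell by 1.35.

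Outside every list, the named genes with established symbols that rose most were headed by Ddx60, an antiviral helicase, at 3.66 and by Phf11b at 3.25 and Trim34b at 3.07, whose families have listed antiviral members. Apol9b and Apol9a, a near-identical pair, rose by 2.83 and 2.74. Others have no place in the interferon pathway. Penk, which encodes the enkephalin precursor, went from 0.72, 0.33 and 0.46 to 3.73, 2.97 and 4.07 CPM and Hdc, the enzyme that makes histamine, from 1.44, 2.87 and 2.35 to 13.7, 15.6 and 14.2 CPM. Pax5, a factor of B cells, went from 0.257, 0.518 and 0.358 to 2.93, 2.66 and 3.23 CPM, yet the listed B cell markers Ms4a1 and Cd79a were below the count rule. Ces1d, a carboxylesterase, rose by 2.84. The genes that fell most outside the lists were mostly of myeloid cells, among them the phagocyte hexokinase Hk3 at -4.70, the chemokine receptor Ccr1 at -3.96 and the lectin Siglec1 at -4.54. Hk3 stood at -5.31 and Ccr1 at -4.82 without the first Firre library, which held 4 of the 7 and 7 of the 11 counts of the Firre group. Siglec1 is also known as inducible by interferon. A2m, a protease inhibitor, went from 12.2, 9.93 and 9.96 to 0.252, 0.36 and 0.208 CPM. Hk3, Ccr1, Siglec1 and A2m passed the count rule only through the negative control and had to differ.

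**Figure D5:**
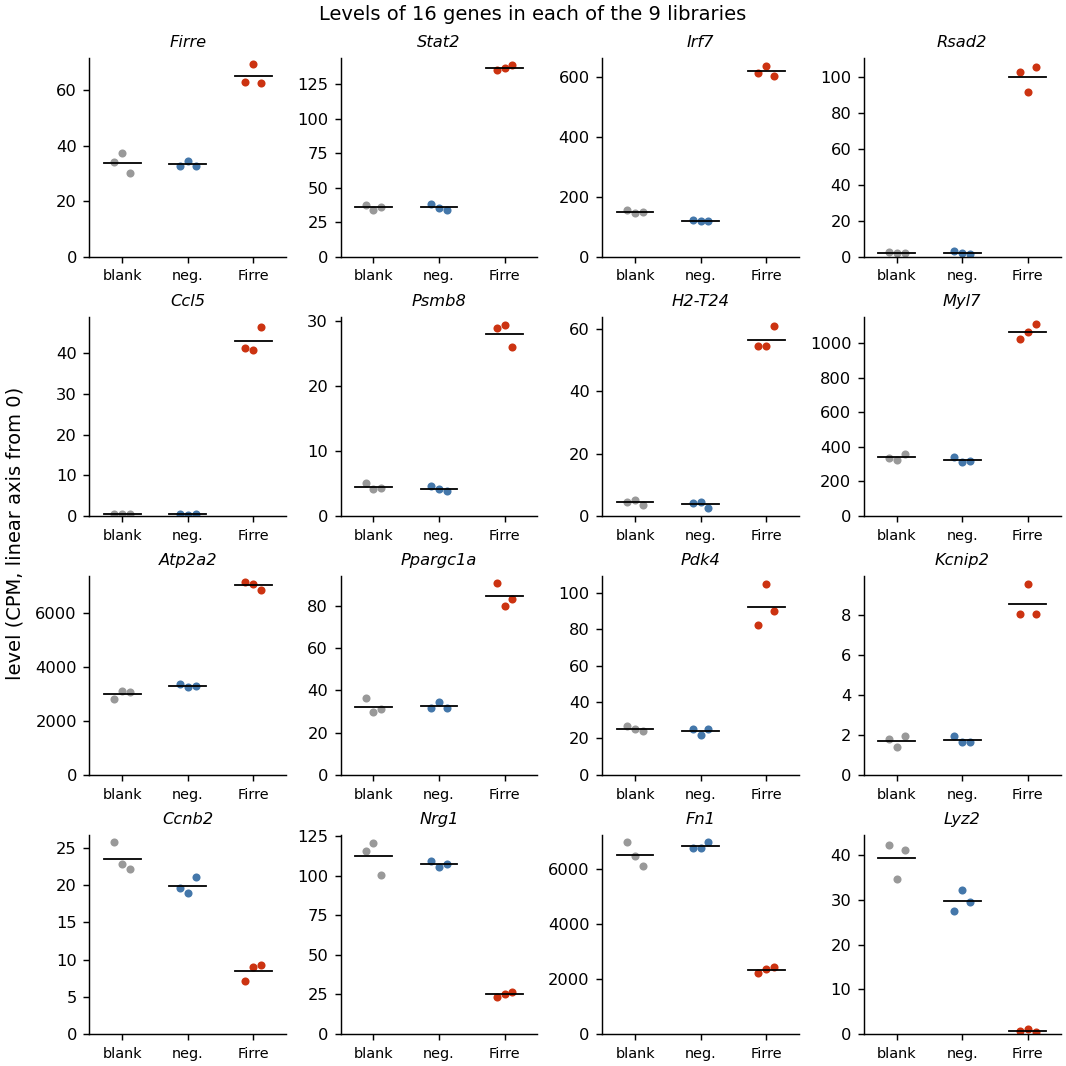
Level of 16 genes (CPM, linear axes from 0) in each of the 9 libraries, grey for blank control, blue for negative control and red for Firre, 1 point per library and a line at the mean of 3. In each of the 16 genes the 3 red points lie clear of the 3 blue points, above for the first 12 and below for Ccnb2, Nrg1, Fn1 and Lyz2.

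Some genes entered the comparison through 1 group. At least 10 counts in all 3 Firre libraries with under 10 in all 3 controls were seen in 129 genes, and the reverse in 197, so these had to differ. The lists that hold such genes count them among their members: 9 macrophage markers, 6 chemokines, 4 GTPases, 3 complement genes, 2 genes each of the MHC class II and the Wnt and Notch lists, and 1 in each of 10 others. At the edge of the rule, 210 genes had a third-highest count of exactly 10 and were inside, and 230 had 9 and were outside. Ackr4, a scavenger of chemokines, was inside with 13, 10 and 11 counts in the negative control and 3, 8 and 0 with Firre. Ager was outside with 11, 4 and 9 counts against 2, 17 and 5.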

How the data were processed

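RNA was extracted with TRIzol and sequenced after rRNA depletion and directional library preparation, per the labels' protocols, although another label names polyA RNA. The authors deposited 1 table of raw counts per Ensembl gene for 9 libraries. The submitters' processing notes name FastQC, Trimmomatic, STAR, featureCounts and mm10, without versions. The closing lines of reads assigned to no gene (5 lines with 16.3% to 17.4% of all counts) are named as HTSeq names them, so the counter and its strand setting are not settled here. They were kept out of library sizes and tests. Reads that mapped to several places were among them, so near-identical genes may be undercounted.

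Identifiers were matched to GENCODE M21 (55227 of 55487). Counts were fitted with edgeR 4.0.16 in R 4.3.3 (TMM scaling, robust quasi-likelihood F test) over all 9 libraries, which gave 6 residual degrees of freedom and a biological coefficient of variation of 5.95%. The contrast was Firre minus negative control, with Benjamini-Hochberg adjustment over 15351 genes and a threshold of 0.05. Libraries of 1 group differed by more than sampling noise (chi-square per degree of freedom 3.41 to 6.78, against 112 to 128 between groups), so each counted as 1 sample. A fold against a group at 0 was set against a floor of 3 counts over the group. Shares of gene pairs were computed from CPM divided by the exon length of the gene. The fit was tested on simulated data. Alternatives used DESeq2 1.42.0 and limma 3.58.1, other scalings, filters and libraries. Promoters came from RefSeq.

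The members and lists were chosen with earlier results of these data known. Named genes were, per list, preset genes and up to 4 with the smallest p, the 12 highest and 12 lowest changes outside lists among genes with at least 2 CPM and an established symbol, the most counted genes, genes near Firre and the owners of the promoters shown. Some of these are not reported here. Calr, Ednrb, Eif2ak3, Eno1, Ifitm2, Il33, Loxl3, Nfkb1, Nr4a3, Pdia3, Rxra, Rxrg, Safb, Tbk1, Tlr7, Tra2a and Vcl, which are list members, were named outside this rule after their values were seen.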

Additional observations from a re-analysis of the deposited data

How the results depend on the processing

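Each count, list and named gene was recomputed under 15 alternatives, changing 1 choice at a time, except that DESeq2 also brought its own size factors. Genes that rose with Firre numbered 4259 and those that fell 4425. The counts were 3984 and 4145 with DESeq2, 4296 and 4435 with limma-voom, 4301 and 4387 with RLE size factors, and 3700 and 4971 with library totals alone. With the filter of edgeR's filterByExpr (15633 genes) they were 4306 and 4441, with no filter on low counts (28225 genes) 4266 and 4478, with these 6 libraries only 4478 and 4466, and without mitochondrially encoded genes 4254 and 4427. Leaving out 1 library at a time gave 3812 to 3927 rises and 4020 to 4132 falls. Library totals alone moved the median of all genes to -0.05 on the log2 scale and the share of rises among calls from 49.0% to 42.7%. Of 233 named genes that passed, 231 kept direction and call under all 15 alternatives. The exceptions were Igsf1 and Hspa5, whose calls were lost without single libraries, as given above, and which kept their signs. Of the named genes that did not pass, 5 passed under some alternative, namely Akt1, Ifitm2, Ptbp2, Rap2c and Tra2a. Xist, which did not pass in any fit, changed sign to -0.01 with library totals alone. Of the counts of list members that rose or fell, 2136 of 2190 stayed within 1.5 times, and 1080 of 1095 list medians stayed within 0.1. With a promoter window that ran on to 50 bases after the start, the ISRE share of the 4 effector lists went from 54.5% to 61.8%.

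The Firre and control libraries share the replicate numbers 1 to 3, which the labels do not tie to a common animal or day. Deviations from the group means correlated at -0.04, -0.03 and 0.02 between same-numbered libraries. These values show no pairing over all genes, and with 3 libraries a group they cannot exclude it in some genes. With the replicate number as a block, 4145 genes rose and 4346 fell, and 8444 of the 8684 calls were shared.

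With 3 libraries a group, an exact permutation test of a single gene cannot go below p = 0.1, so every call rests on the spread that edgeR shares over genes. Differences in genes below 1 CPM, where 28.8% were called, were often not detectable at this depth. Intervals and floors cover counting error only.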

Other observations

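Gene groups not described above also moved. Imprinted genes fell in 12 of 18 cases, beside 28.8% of all genes, and 2 rose. Rian, a noncoding RNA of the same imprinted cluster as Meg3, fell by 1.16. Nnat, an imprinted membrane protein gene, fell by 1.29, whereas the zinc finger gene Peg3 rose by 0.41. Of the genes for mitochondrial biogenesis, import and dynamics, 18 of 28 rose and 1 fell. Perm1, a regulator of oxidative metabolism in muscle, rose by 1.36 and the fusion proteins Mfn1, Mfn2 and Opa1 by 0.64, 0.63 and 0.54. The nuclear receptor Rxrg rose by 1.48 and its relative Rxra fell by 0.22. Genes for ketone body and branched-chain amino acid breakdown rose in 11 of 20 cases, among them Hibadh at 0.67 and Bdh1 at 0.56. Among ribosome biogenesis and translation factors, 11 of 23 fell, with Mycn, a transcription factor of the Myc family, at -1.28. Genes induced by glucocorticoids divided evenly, 4 up and 4 down of 12, with the kinase Sgk1 at -1.41 and Pik3ip1, an inhibitor of PI3K, at 0.92. Identity factors of heart chambers were mixed as well. Nr2f1, a nuclear receptor of the atria, rose by 0.97 and Tbx18, a factor of epicardium and sinus node, fell by 0.42. Of the markers of Schwann cells, neurons and adipocytes, 4 of 5 with enough counts fell, Sox10 by 1.62. Their part in the falls above was not tested.

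The blank control libraries enter no contrast here, but they were part of the fit and so of the spread behind each p-value. Rsad2 was at 2.56, 2.1 and 2.12 CPM in the blank, Ifit1 at 32.7, 23.8 and 20.9 CPM and Ccl5 at 0.512, 0.342 and 0.401 CPM, each below every Firre library. Lyz2 stood at 42.4, 34.7 and 41.1 CPM and Ptbp1 at 333, 299 and 318 CPM, each above every Firre library. For Lyz2 the blank libraries also lay above every negative control library.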
